A study of Mus musculus with 2 samples.

Results

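The cells described here are the microglia and macrophages found in 2 single-cell libraries of CD31-enriched mouse retina. They were chosen on measured values. Among barcodes with at least 1000 unique molecular identifiers (UMIs, the counted transcript molecules), at least 500 genes and 1 to 10% mitochondrial UMIs, a cell was taken when C1qa, C1qb and C1qc together reached 1000 CPM (counts scaled to a common library total). It also needed at least 1 UMI of Csf1r, Tyrobp or Cx3cr1, and less than 2000 CPM summed over 8 endothelial genes (Pecam1, Cdh5, Cldn5, Kdr, Flt1, Egfl7, Esam and Ramp2). This gave 305 of 10347 cells, 69 of 7583 in the control library and 236 of 2764 in the Alk1 ECKO library.

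The study examined a mouse model of hereditary hemorrhagic telangiectasia, an inherited disease of arteriovenous malformations, in pups at postnatal day 6 (P6). Retinal cells were enriched on beads against CD31, an endothelial surface protein, and their transcripts were counted from the 3' end by droplet sequencing (10x Genomics, v3.1 chemistry). The control library is labelled Alk1f/f, with both copies of Alk1 flanked by recombination sites and no Cre named. The Alk1 ECKO library is labelled Alk1f/f Cdh5 CreERT2, so it shares those floxed alleles and adds an inducible recombinase under the endothelial Cdh5 promoter. Microglia and macrophages are therefore not the cells in which that promoter is known to be active. The number of animals per library, their sex and the inducing treatment could not be taken from the labels. Each genotype had 1 library, so every difference below is one between 2 libraries. No test across replicates could be made, and each 95% interval covers counting error only.

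Microglia are the resident macrophages of the retina and brain. They arise from yolk sac progenitors, need signals through the CSF1 receptor to survive, tile the tissue, and in the developing retina engulf dying neurons and synapses and associate with vascular sprouts. Their resting state is marked by the purine receptor P2RY12, the surface protein TMEM119 and the transcription factor SALL1. Perivascular and other border macrophages lie along vessels and in the membranes around the tissue, and are marked by the mannose receptor MRC1, the chemokine PF4, the hyaluronan receptor LYVE1 and the scavenger receptor CD163.

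The results below turn on a chemokine gene, a cytokine gene and a border macrophage gene that stood apart between the libraries or the cells, so the 250 bases before the RefSeq start of each are shown (GRCm38.p6, 5' to 3' on the gene's own strand). Cxcl10, which encodes an interferon-inducible chemokine, has the window chr5:92348890-92349139 (minus strand). Il1a, which encodes the cytokine IL-1 alpha, has chr2:129309973-129310222 (minus strand). Pf4, which encodes platelet factor 4, has chr5:90772185-90772434 (plus strand). Capitals mark matches on either strand to the interferon response pattern (ISRE, GAAA and again GAAA with any 2 bases between), the STAT pattern TTCNNNGAA, the AP-1 pattern TGANTCA or the kappaB pattern.
Cxcl10: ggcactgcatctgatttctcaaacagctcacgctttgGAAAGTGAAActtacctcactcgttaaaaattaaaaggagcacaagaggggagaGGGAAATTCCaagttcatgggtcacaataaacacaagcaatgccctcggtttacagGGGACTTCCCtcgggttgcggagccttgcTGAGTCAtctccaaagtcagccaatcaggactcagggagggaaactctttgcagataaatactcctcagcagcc
Il1a: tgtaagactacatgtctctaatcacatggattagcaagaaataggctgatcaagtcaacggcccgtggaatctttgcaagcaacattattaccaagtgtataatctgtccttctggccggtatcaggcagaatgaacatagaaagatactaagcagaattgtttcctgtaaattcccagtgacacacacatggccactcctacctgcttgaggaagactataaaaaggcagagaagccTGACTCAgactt
Pf4: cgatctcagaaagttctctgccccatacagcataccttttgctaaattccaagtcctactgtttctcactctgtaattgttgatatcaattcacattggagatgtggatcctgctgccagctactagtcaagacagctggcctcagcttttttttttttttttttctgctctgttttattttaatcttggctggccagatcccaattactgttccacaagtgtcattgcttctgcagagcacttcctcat
The Cxcl10 window held the ISRE pattern at 213 to 204 bases before the start, the kappaB pattern at 159 to 150 and again at 103 to 94, and TGANTCA at 74 to 68. The Il1a window held TGANTCA at 12 to 6 bases before the start, and the Pf4 window held none of the 4 patterns. Among 32851 RefSeq promoters of this length, 2.98% held the ISRE pattern, 7.02% TTCNNNGAA, 6.75% TGANTCA and 3.90% the kappaB pattern. A match describes letters only.

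Control members summed to 803868 UMIs and Alk1 ECKO members to 3194964, with a median of 10410 and 13054.5 UMIs and of 2978 and 3198 genes per cell. Endothelial cells of the same libraries were deeper, with medians of 19729.5 and 21760 UMIs (320 and 1279 cells), and cells of the photoreceptor lineage were shallower, with 3166 and 2482 (3708 and 468 cells). Members were 0.910% of the filtered control cells (0.709 to 1.15, exact Clopper-Pearson) and 8.54% of the filtered Alk1 ECKO cells. The beads select for endothelium, so these shares describe what was captured and not the tissue. Of 20 barcodes present in both libraries, 1 was a member in control and 1 in Alk1 ECKO, and none was a member in both.

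The genes the selection read describe the members and support nothing. The summed level of C1qa, C1qb and C1qc, the chains of complement C1q, ran per cell from 1153 to 31296 CPM in control (median 15024) and from 1188 to 37723 CPM in Alk1 ECKO (median 20344). Only 2 control and 3 Alk1 ECKO members lay between 1000 and 2000 CPM, and 15 control and 7 Alk1 ECKO cells lay just below the limit, at 543 to 996 and 509 to 912 CPM. Few members thus lay just above the limit, and in both libraries more cells lay just below it than just above it. Over all members, the receptor gene Csf1r was at 1131 CPM (control) and 1189 CPM (Alk1 ECKO), the adaptor Tyrobp at 3702 and 4683, and the fractalkine receptor Cx3cr1 at 1984 and 1676.

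Genes outside the selection fitted the label of microglia and macrophages in both libraries. Among the 20 genes with the highest ratio of members to all other cells were the lysozyme gene Lyz2 (3280 CPM in control, 4967 CPM in Alk1 ECKO), the lipid receptor Trem2 (1878 and 2680), and the cathepsins Ctss (3089 and 3386) and Ctsd (7917 and 11322). The apolipoprotein gene Apoe was at 28630 and 30473 CPM, and the haem oxygenase gene Hmox1 at 4309 and 3914 CPM. Genes of other leukocytes were low but not all absent. The 16 monocyte genes summed to 64.7 and 41.3 CPM, with the defining Ly6c2, Plac8 and Chil3 at 0 in both libraries, the neutrophil genes to 2.49 and 11.6 CPM, and the dendritic cell genes to 88.3 and 90.1 CPM. Most of the dendritic cell sum was Fscn1 (44.8 and 49.5 CPM) and Batf3 (37.3 and 38.2 CPM). The lymphocyte genes summed to 22.4 and 53.8 CPM, of which Cd79b, a B cell receptor chain, made up 18.7 and 49.8, while Cd3e was at 0. Transcripts of other retinal cells were present: photoreceptor genes summed to 495 CPM in control members against 208 CPM in Alk1 ECKO members, haemoglobin and other erythroid genes to 558 and 168 CPM, and genes of Müller glia, the retina's radial support cells, to 787 and 838 CPM. Their part in the differences below was not tested.

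Most members in both libraries carried the marks of microglia. At least 2 UMIs of P2ry12 and Tmem119 together were found in 43 of 69 control members (62.3%, 49.8 to 73.7) and 197 of 236 Alk1 ECKO members (83.5%, 78.1 to 88.0). At full depth 76.8% and 88.6% held at least 1 such UMI, and when every cell was thinned to 1000 UMIs 42.0% (30.2 to 54.5) and 40.3% held at least 1, with overlapping counting intervals. Thinned shares here and below count cells with at least 1 UMI. P2ry12 itself was at 529 and 508 CPM in the control and Alk1 ECKO members, Tmem119 at 59.7 and 66.4 CPM, and Sall1 at 90.8 and 109 CPM. In endothelial cells P2ry12 was at 0.183 and 0.662 CPM.

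Cells with border macrophage marks formed a larger share of the control members. At least 2 UMIs of Mrc1 and Pf4 together were found in 16 of 69 control members (23.2%, 13.9 to 34.9) and 17 of 236 Alk1 ECKO members (7.20%, 4.25 to 11.3), and at least 1 UMI in 33.3% and 15.3% at full depth and in 13% (9 cells) and 2.54% (6 cells) after thinning. Thinned photoreceptor-lineage cells, which should lack both genes, gave 0.0809% in control and 0 of 468 in Alk1 ECKO, and thinned endothelial cells 0.625% and 0.391%. The 2 kinds of mark overlapped. Of the control members, 37 held the P2ry12/Tmem119 mark alone, 10 the Mrc1/Pf4 mark alone, 6 both and 16 neither, and of the Alk1 ECKO members 181, 1, 16 and 38. Cells with neither mark were shallow, with medians of 3657 (control) and 2212 UMIs (Alk1 ECKO), and low counts alone can place a cell there. These groups are ranges of UMI counts and not cell types.

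**Figure D1:**
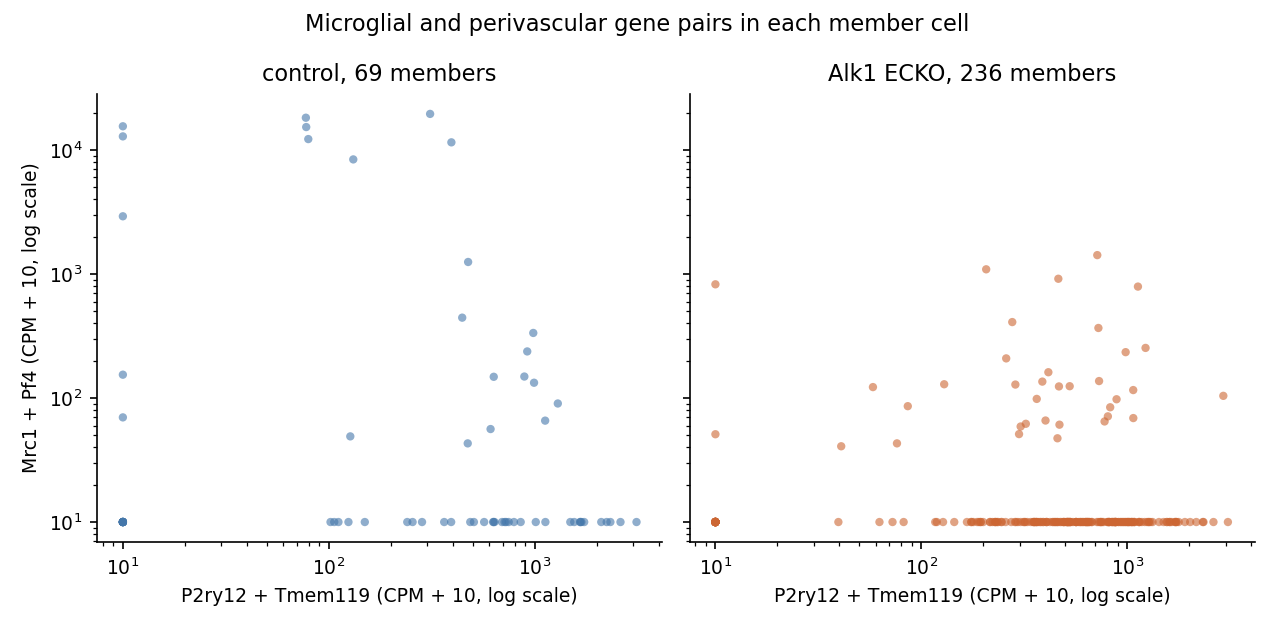
Each point is 1 member cell, with the summed CPM of P2ry12 and Tmem119 on the horizontal axis and of Mrc1 and Pf4 on the vertical axis (log scales, 10 CPM added), and 1 panel per library. Control cells reach 19531 CPM of Mrc1 and Pf4 and Alk1 ECKO cells 1410 CPM.

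The 10 control cells with the Mrc1/Pf4 mark alone differed from the other members in genes that the split did not use. In these cells Pf4 summed to 753 UMIs (7415 CPM) and Mrc1 to 3003 CPM, which the split fixed. Beside them, Lyve1, a hyaluronan receptor, was at 1260 CPM (7 of 10 cells), F13a1, the A chain of coagulation factor XIII, at 1123 CPM (9 of 10 cells), and the haemoglobin scavenger receptor Cd163 at 266 CPM (5 of 10 cells). The C-type lectin Cd209f was at 719 CPM in 3 of 10 cells, the membrane protein gene Ms4a7 at 1083 CPM in 9, and the endocytic adaptor Dab2 at 1871 CPM. The monocyte-attracting chemokine genes Ccl2 and Ccl7 were at 3082 CPM (6 of 10 cells) and 1054 CPM (7 of 10 cells). Lyve1, F13a1, Cd163, Cd209f, Ms4a7 and Ccl7 each had 0 UMIs in the 37 control cells with the P2ry12/Tmem119 mark alone, called microglia-marked cells below. The microglial genes went the other way. In the 10 cells Sall1 was at 0 CPM against 115 CPM in the 37, Trem2 at 443 against 2143 CPM, Olfml3, a secreted matrix protein of microglia, at 39.4 against 706 CPM, and Il1a at 0 against 228 CPM.

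The perivascular list, without the genes of the split, had 28 genes that summed to 12151 CPM in these 10 control cells and to 1277 CPM in the 37 microglia-marked cells. The homeostatic microglia list, 33 genes without the split's own, summed to 11501 and 29850 CPM. No Alk1 ECKO member held a UMI of Lyve1, F13a1, Cd163 or Cd209f, and 0.424% of them (1 cell, 0.0107 to 2.34) held the Mrc1/Pf4 mark alone against 14.5% in control. The 16 Alk1 ECKO cells with both marks were at 1904 CPM of the perivascular list, against 1190 CPM in the 181 cells of that library with the P2ry12/Tmem119 mark alone, and at 23323 CPM of the homeostatic list. In those 16 cells Mrc1 was at 189 CPM, Pf4 at 56.9 CPM (6 of 16 cells), Ms4a7 at 182 CPM (5 of 16 cells) and Sall1 at 74.7 CPM. The single Alk1 ECKO cell with the Mrc1/Pf4 mark alone held 4 Pf4 and 3 Mrc1 UMIs, and the perivascular list summed to 1981 CPM in it, far below the 10 control cells.

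**Figure D2:**
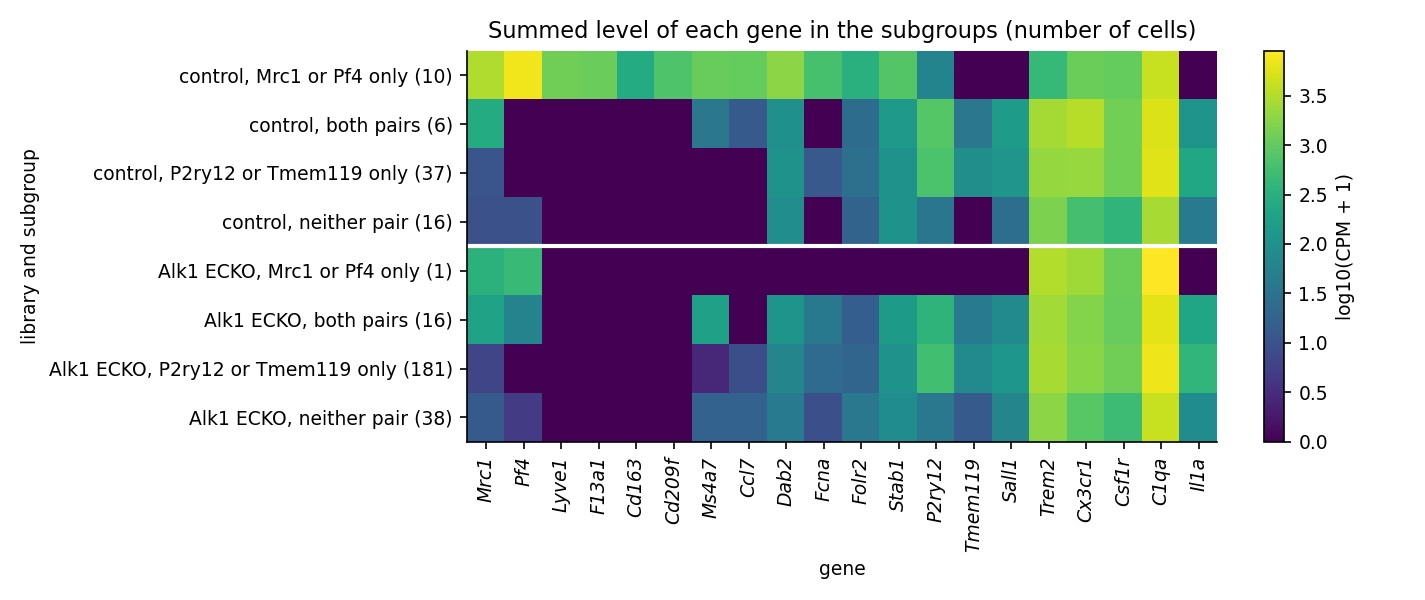
Heat map of border macrophage and microglial genes (columns) in the subgroups of members of each library (rows, with the number of cells), coloured by the log10 of the summed CPM with 1 CPM added. Lyve1, F13a1, Cd163 and Cd209f appear in the row of the 10 control cells with the Mrc1/Pf4 mark alone and are dark in every other row.

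Outside the selection the border macrophage genes differed among themselves. Over all 8739 control barcodes F13a1 summed to 119 UMIs, of which 114 lay in 9 members, and over all 5308 Alk1 ECKO barcodes it summed to 4. Cd209f had 73 UMIs in control, all in 3 members, and 0 in Alk1 ECKO. Cd163 had 27 and 1 UMIs. Lyve1, which lymphatic endothelial cells also express, had 145 and 58 UMIs, and outside the members no barcode held more than 2 in control or 4 in Alk1 ECKO. Pf4 was spread more widely, with 134 UMIs in 70 control barcodes and 345 UMIs in 233 Alk1 ECKO barcodes outside the members, at most 16 and 7 in 1 barcode, and Mrc1 had 13 and 42 UMIs there. For a gene with 0 UMIs in the 236 Alk1 ECKO members, 3 counts allow a share of up to 1.27% of cells with a UMI, and the exact Clopper-Pearson limit is 1.55%. A further 21 control and 70 Alk1 ECKO barcodes outside the members held at least 2 Mrc1 or Pf4 UMIs, and 2 and 3 of them reached 1000 CPM of C1q.

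Dividing members were few. At least 2 UMIs of Mki67 and Top2a, genes of dividing cells, were found in 3 of 69 control (4.35%) and 7 of 236 Alk1 ECKO members (2.97%). At least 1 UMI was found in 7.25% and 8.48% at full depth, and in 0 of 69 and 7 of 236 members after thinning. Thinned endothelial cells gave 18.8% and 16.3%. Of the 3 control cells, 1 held 30242 of their 35254 UMIs, so their summed levels are largely those of 1 cell. The other 2 held exactly 2 Mki67 or Top2a UMIs each. The other genes of the G2/M list summed to 7517 CPM in the 3 control and 3975 CPM in the 7 Alk1 ECKO cells, against 263 and 255 CPM in members with no Mki67 or Top2a UMI. G1/S genes, which act in DNA replication, summed to 1844 and 2318 CPM against 423 and 420 CPM. Of these cells, 2 of 3 and 6 of 7 also held the P2ry12/Tmem119 mark, and none held the Mrc1/Pf4 mark.

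The main comparison asked how members of the Alk1 ECKO library differed in expression from those of the control library. UMIs were summed over the members of each library, so fewer cells of a kind and less RNA per cell cannot be told apart. Acvrl1, which encodes the BMP receptor ALK1 that the knockout targets in endothelium, had 24 UMIs in control members (29.9 CPM, 14 cells) and 46 in Alk1 ECKO members (14.4 CPM, 38 cells), a log2 ratio of -1.05 (-1.79 to -0.28). In endothelial cells it was at 114 and 116 CPM. The assay counts 3' ends and the labels do not name the deleted exons, so these levels do not check the deletion. Of 6594 measured genes, 222 were higher in Alk1 ECKO (3.37% of those measured) and 899 lower (13.6%), with at least a 1.5-fold ratio and an interval that excluded no difference. The median log2 ratio over all measured genes was -0.12, and once it was set to 0 the split became 377 higher and 612 lower. How many genes counted as lower thus depended on the scale. The other cells of these libraries had medians of -0.63 (all other cells), -0.22 (endothelial) and -0.16 (photoreceptor lineage).

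Several of the genes lowest in Alk1 ECKO members, though not all, were those of border macrophages. Pf4 (chr5:90772435-90773383) had 754 UMIs in 11 control members and 21 UMIs in 8 Alk1 ECKO members, 938 against 6.57 CPM (log2 ratio -7.16, -7.86 to -6.53). Mrc1 (chr2:14229392-14332057) had 333 UMIs in 22 control cells and 74 in 33 Alk1 ECKO cells, 414 against 23.2 CPM (-4.16, -4.54 to -3.79). Both genes were read by the subgroup split but not by the selection of members. Lyve1 (chr7:110850607-110863239) had 128 UMIs in 7 control cells and 0 in Alk1 ECKO, at least 169.6-fold lower against a floor of 3 counts per library, with 54.7% of the control UMIs in 1 cell. F13a1 (chr13:36867178-37050244) had 114 UMIs in 9 control cells and 0 in Alk1 ECKO, at least 151-fold lower. Cd209f (chr8:4102787-4105835) had 73 UMIs in 3 control cells, 76.7% of them in 1, and 0 in Alk1 ECKO, at least 96.7-fold lower. The control UMIs of Lyve1, F13a1 and Cd209f lay in cells with the Mrc1/Pf4 mark alone.

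Further genes among the 12 lowest were Ms4a7 (141 against 18.8 CPM, log2 ratio -2.90), Dab2 (322 against 64.5 CPM, -2.32), Ccl7 (134 against 7.83 CPM, -4.10) and the chemokine receptor gene Ccr1 (67.2 against 9.08 CPM, -2.89). The interferon-inducible gene Ifi207 had 45 against 8 UMIs (-4.48), and Sycp3, a gene of the meiotic chromosome axis, 60 against 8 (-4.90). AY036118, a transcript from the ribosomal RNA repeat, was at 722 against 75.4 CPM (-3.26), and it was lower in endothelial cells of the same libraries too (-2.48). Among microglia-marked cells alone, Dab2 was at -0.71 and AY036118 at -3.24, while Ccl7 and Ccr1 had 0 control UMIs there and 21 and 24 in Alk1 ECKO.

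At the other end, the gene with the highest ratio was Cxcl10 (chr5:92346638-92348889), whose promoter window is shown above. It had 2 UMIs in 2 of 69 control members and 245 UMIs in 29 of 236 Alk1 ECKO members, 2.49 against 76.7 CPM (log2 ratio 4.95, 3.08 to 8.0). The top Alk1 ECKO cell held 19.2% of its UMIs, and without the top cell of each library the levels were 1.27 and 62.4 CPM. After thinning, 4.66% of Alk1 ECKO members (2.35 to 8.19) and 0 of 69 control members (0 to 5.21) held a Cxcl10 UMI, with overlapping counting intervals. In Alk1 ECKO, 0 of 468 photoreceptor-lineage and 0.313% of endothelial cells did. Endothelial Cxcl10 was low in both libraries, at 3.39 and 3.01 CPM. Among the members, the cells with Cxcl10 were a minority of 12.3% in Alk1 ECKO and 2.90% in control.

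Socs3 (chr11:117966079-117970047), an inhibitor of cytokine receptor signalling that cytokines induce, had 15 UMIs in 12 control members and 291 UMIs in 113 Alk1 ECKO members, 18.7 against 91.1 CPM (log2 ratio 2.29, 1.54 to 3.14). Cells with a Socs3 UMI were 17.4% of control and 47.9% of Alk1 ECKO members, and after thinning 2.90% and 8.05%, with overlapping counting intervals. Thinned endothelial cells gave 3.13% in both libraries and photoreceptor-lineage cells 1.08% and 0.427%. Socs3 was higher in other cells of the Alk1 ECKO library as well, at 17.6 against 41.8 CPM in endothelial cells (log2 ratio 1.25, 1.03 to 1.47) and at 17.6 against 45.6 CPM in all other cells (1.37). In members thinned to 1000 UMIs the ratio was 1.62 and its call was lost. In Alk1 ECKO, 19 of the 29 cells with Cxcl10 also held Socs3 and 27 also held Il1a, while Socs3 was found in 113 and Il1a in 168 of all 236 members. Cells with Cxcl10 had a median of 14045 UMIs and those without it 12682.

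Spp1 (chr5:104435118-104441050), which encodes the secreted phosphoprotein osteopontin, had 489 UMIs in 28 control members and 5373 in 117 Alk1 ECKO members, 608 against 1682 CPM (log2 ratio 1.47, 1.33 to 1.60). A single cell held 38.5% of the control and 50.01% of the Alk1 ECKO UMIs, with 166326 CPM in that Alk1 ECKO cell and 9704 CPM in the control one. Without those cells the levels were 384 and 845 CPM (1.14, 0.97 to 1.32), so the size depended on 1 cell while the direction did not. Endothelial cells had 0 Spp1 UMIs in control and 149 in Alk1 ECKO. The remaining named genes with high ratios rested on few control UMIs. Pianp had 1 against 63 UMIs (3.99, 1.46 to 9.31) and Fkbp1b, a regulator of calcium release channels, 3 against 72 (2.59, 0.99 to 4.91). Aldh16a1 and Dalrd3 had 4 against 69 each (2.12), the phosphodiesterase gene Pde8b 4 against 56 (1.82), the purine synthesis gene Gart 5 against 66 (1.73) and Capn3 4 against 52 (1.71). The integrin chain gene Itgav had 6 against 68 (1.51) and the folate and haem transporter gene Slc46a1 8 against 88 (1.47).

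**Figure D3:**
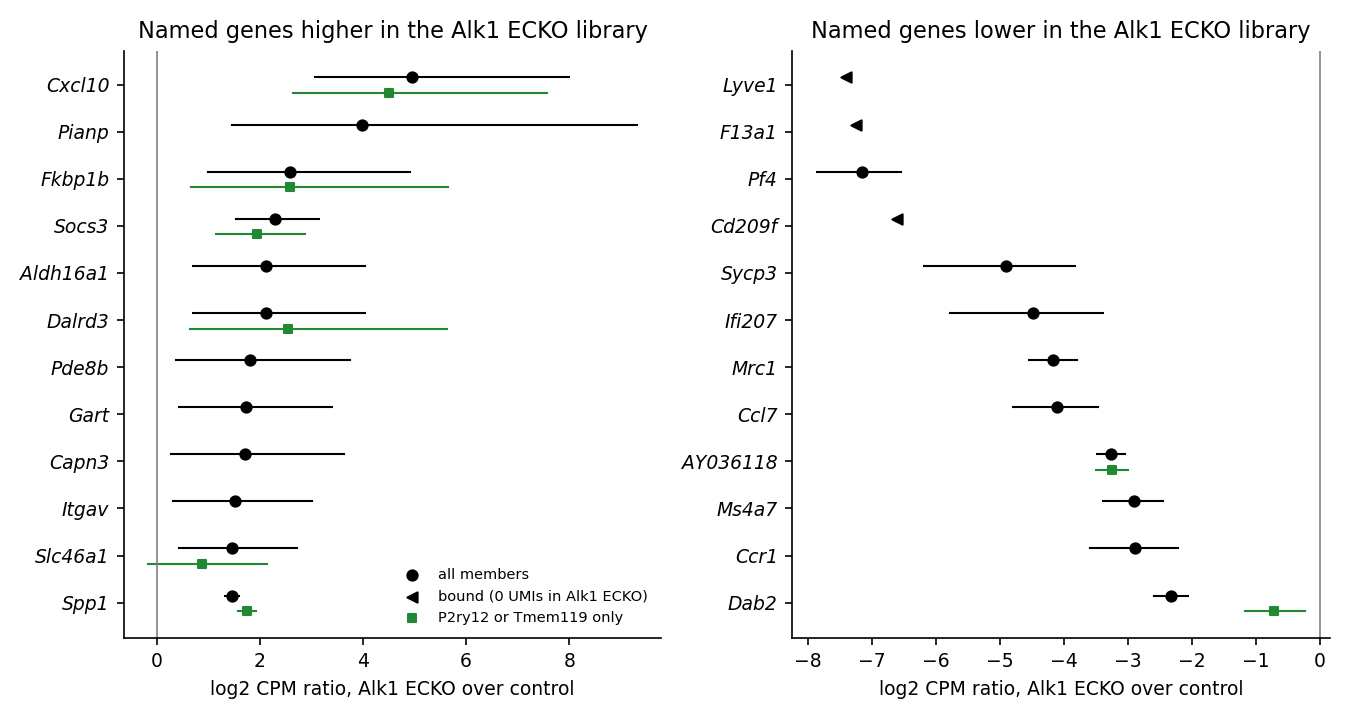
Log2 CPM ratio of Alk1 ECKO over control for the named genes, in all members (black) and, where measured, in cells with the P2ry12/Tmem119 mark alone (green squares), with 95% counting intervals as bars. Lyve1, F13a1 and Cd209f are drawn at their bounds against a floor of 3 counts, since they had 0 UMIs in Alk1 ECKO members.

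Because 10 of the 11 cells with the Mrc1/Pf4 mark alone were in the control library, the comparison was repeated in the 37 control and 181 Alk1 ECKO cells with the P2ry12/Tmem119 mark alone. Of 5153 genes measured there, 170 were higher in Alk1 ECKO (3.30%) and 426 lower (8.27%), and the median log2 ratio was -0.05. Cxcl10 was at 3.96 CPM in control (2 of 37 cells) and 90.2 CPM in Alk1 ECKO (27 of 181 cells), a log2 ratio of 4.51 (2.64 to 7.56). Socs3 was at 25.8 CPM (10 of 37 cells) and 99.2 CPM (97 of 181 cells), a ratio of 1.94 (1.15 to 2.87). Spp1 was at 551 and 1843 CPM (1.74), and at 438 and 838 CPM without the top cell of each library. Spp1 UMIs were found in 20 of 37 control (54.1%) and 94 of 181 Alk1 ECKO cells (51.9%), so the share of cells with Spp1 was not higher. These 3 genes thus had higher summed levels among microglia-marked cells as well.

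Others among the 12 highest there were Fkbp1b (2.58), Dalrd3 (2.56), the metal-responsive transcription factor gene Mtf1 (2.21), the lysosomal acetyltransferase gene Hgsnat (1.97), Snx8 (1.90), Ap5s1 (1.75), Neurl2 (1.65) and Arrdc4 (19.8 against 56.7 CPM, 1.52). Gpnmb, a glycoprotein of phagocytic cells, was at 15.9 CPM in 5 of 37 control cells and 41.7 CPM in 18 of 181 Alk1 ECKO cells (1.40), while over all members its ratio was -0.41. The lowest, after AY036118, were Fbxo30 (-1.89), the nuclear receptor gene Nr4a1 (71.4 against 20.3 CPM, -1.82), Ints6 (-1.64), Prpsap2 (-1.57), the oxysterol receptor gene Gpr183 (73.3 against 26.7 CPM, -1.46) and Arf2 (-1.45). Adamts1, a secreted protease, was at -1.41, the G protein regulator Rgs1 at -1.40, Gab1 at -1.40, Kidins220 at -1.36 and Mir99ahg at -1.36.

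**Figure D4:**
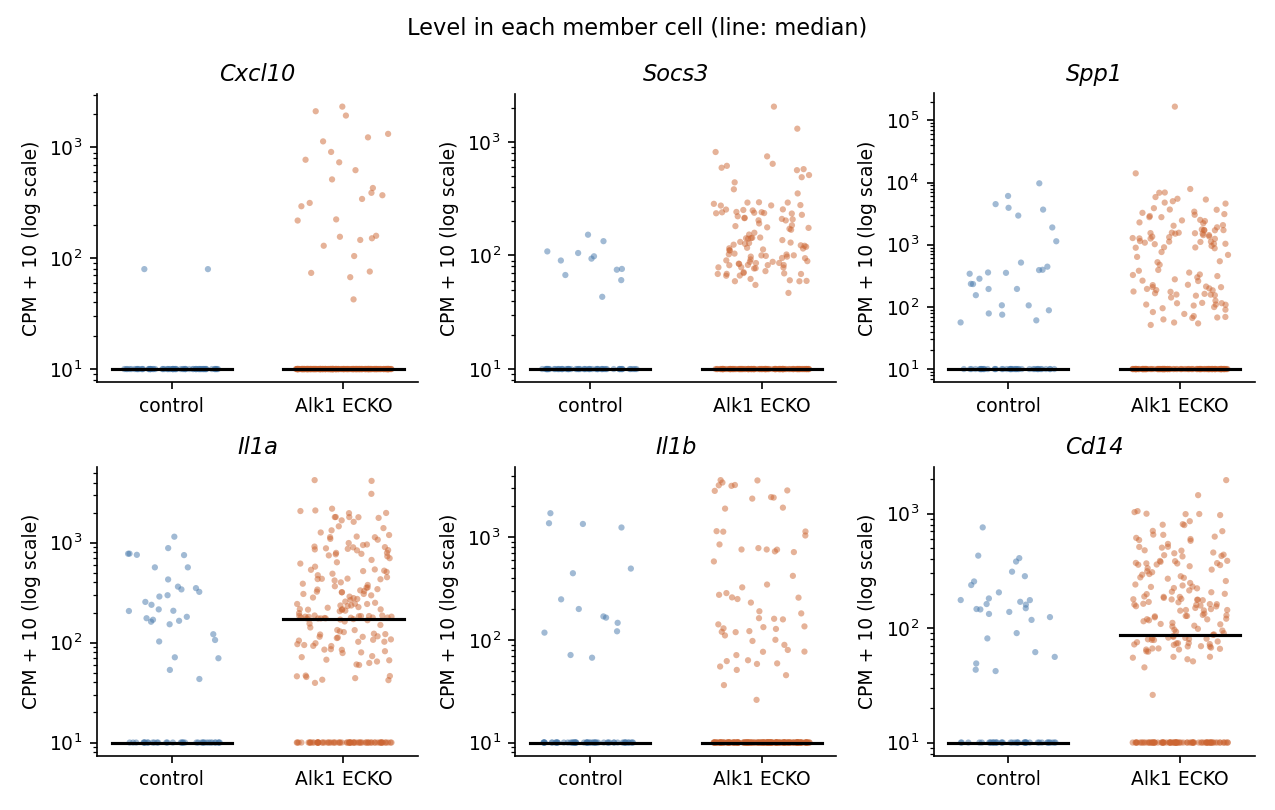
Level of Cxcl10, Socs3, Spp1, Il1a, Il1b and Cd14 in each member cell by library (CPM with 10 added, log scale), with 1 point per cell and the median as a line. Most cells held no Cxcl10 in either library, 1 Alk1 ECKO cell stands far above the others for Spp1, and the Alk1 ECKO medians of Il1a and Cd14 lie above 0 while the control medians are at 0.

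Few genes of the resting microglial program were called different between the libraries. Of 34 measured homeostatic microglia genes, none was higher and 1 lower in Alk1 ECKO, with a median of -0.05. The lower one was Gpr183 (-1.66), and Siglech, a lectin of microglia, was at -0.36 with neither call. Trem2 (0.51) lay below the 1.5-fold limit. In the microglia-marked cells none of 34 homeostatic genes was higher and 3 were lower (median -0.18). Of all genes measured there 8.27% were lower. The homeostatic list holds P2ry12 and Tmem119, whose UMIs picked the microglia-marked cells, so the values of that pair describe the choice of cells. Over all members, 17 of 20 measured perivascular genes were lower and none higher (median -1.61), where 13.6% of all measured genes were lower. The list holds Mrc1 and Pf4, and Lyve1 and F13a1 were measured through control UMIs alone. Several of its genes were high in the same 10 control cells, so this count is not separate evidence. Of the 20 genes, 11 were measured in the microglia-marked cells, 2 were lower and their median was 0.01. These are fewer genes, and cells with the Mrc1/Pf4 mark had been left out of that group by construction, so the 2 medians cannot be set against each other. Of 21 measured transcription factor genes of the lineage, 3 were lower in the microglia-marked cells and none higher. Over all members none was higher and 1 lower, Maf (399 against 205 CPM, -0.96). Of 18 growth factor and chemokine receptor genes 2 were lower, Ccr1 and the interferon receptor gene Ifnar1 (-0.82), and of 12 purinergic and sensing receptor genes 2 were lower, P2rx7 (-0.84) and Lpar6 (-0.99).

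Most genes of phagocytosis had no call. Of all measured genes 3.37% were higher and 13.6% lower, and the counts below stand beside these shares. Of 27 measured phagocytic and growth-region microglia genes, 4 were higher and 1 lower (median 0.09). The higher ones were Spp1, the fatty acid binding protein gene Fabp5 (685 against 1044 CPM, 0.61), the antioxidant gene Gpx3 (68.4 against 114 CPM, 0.73) and the growth factor gene Csf1 (57.2 against 106 CPM, 0.89). None of 29 lysosome genes was called in either direction, and their median was 0.16. Of 24 engulfment genes 1 was higher and 3 lower (0.08), the lower ones being the scavenger receptor Stab1 (-0.85), the inhibitory antibody receptor Fcgr2b (-2.02) and Cd300lf (-0.70). In the microglia-marked cells 2 of 23 were lower and none higher, and the lowest ratio was -0.70. Of 11 complement genes other than C1q 2 were lower, among them Cfp (-2.19), which encodes properdin. Only 7 of them were measured in the microglia-marked cells, where 1 was lower and the lowest ratio was -0.94. The antigen presentation genes H2-DMa (75.9 against 143 CPM, 0.92) and H2-DMb1 (0.68) were higher, 2 of 5 measured in the MHC class II list. Of 11 MHC class I genes 1 was higher, H2-M3, with a median of 0.20.

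Cytokine and immediate early genes went both ways. Of 17 measured chemokine and cytokine genes, 5 were higher and 5 lower (median 0.10), where 3.37% of all measured genes were higher and 13.6% lower, and in the microglia-marked cells 5 of 16 were higher and 1 lower (0.37). Il1a (chr2:129299610-129309972) had UMIs in 33 of 69 control members (47.8%) and 168 of 236 Alk1 ECKO members (71.2%), 161 against 362 CPM (1.17, 0.91 to 1.45). After thinning the shares were 11.6% and 21.2%, with overlapping counting intervals, against 0 of 468 photoreceptor-lineage and 0.0782% of endothelial cells in Alk1 ECKO. In the microglia-marked cells the ratio of Il1a was 0.83. Il1b, its relative, was at 102 CPM (15 cells) and 197 CPM (64 cells), a ratio of 0.95 that came to 0.39 with no call in the microglia-marked cells. Csf1 and the chemokine gene Ccl6 (149 against 235 CPM, 0.66) were higher too. Ccl2 was lower over all members (485 against 186 CPM, -1.38) and higher in the microglia-marked cells (125 against 203 CPM, 0.70). Cxcl2 went the same 2 ways (378 against 224 CPM, -0.76, and 0.77), with its control UMIs in the microglia-marked group in 1 cell. Their lower level over all members thus came with cells outside the microglia-marked group. Ccl3 (1168 against 900 CPM), Ccl4 (1715 against 1529 CPM), Ccl12 (244 against 261 CPM) and Tnf (198 against 288 CPM, 0.54) had no call.

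Of 23 measured NF-kB response and pattern receptor genes, 5 were higher and 3 lower (median 0.02), the lower side being near the 13.6% of all measured genes and the higher side above their 3.37%. The lipopolysaccharide co-receptor gene Cd14 was at 79.6 CPM in 29 control cells and 175 CPM in 154 Alk1 ECKO cells (1.14). Its thinned shares were 2.90% and 13.1%, with overlapping counting intervals. Nfkbia, the inhibitor that NF-kB itself induces, was at 539 and 864 CPM (0.68), with thinned shares of 21.7% and 46.2%. Socs3, Ccrl2 (31.1 against 63.2 CPM, 1.02) and the adhesion molecule gene Icam1 (116 against 175 CPM, 0.59) completed the higher ones, while the pattern receptor genes Tlr4 (-1.03), Tlr7 (-0.96) and Tlr13 (-0.68) were lower. Of 14 interferon response genes, 1 was higher and 5 lower (median -0.39), and in the microglia-marked cells 1 of 9 was higher and 2 lower (0.07). Ifitm2 was higher (44.8 against 84.2 CPM), and Ifitm3, Ifi27l2a, Ifi207, Gbp7 and Parp14 were lower. These are sums over all members, of which 29 of 236 in Alk1 ECKO held Cxcl10. Only 14 of the 35 list genes in the files were measured. Whether the cells with Cxcl10 differed in these genes was not tested.

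Of 23 immediate early genes, which respond within minutes to many stimuli and also to cell dissociation, 5 were higher and 5 lower (median 0.00). Of all measured genes 3.37% were higher and 13.6% lower. Fos was at 1207 and 2041 CPM (0.76), Fosb at 93.3 and 170.3 CPM (0.87), Jund at 659 and 1076 CPM (0.71), Ier2 at 479 and 830.1 CPM (0.79) and Dusp1 at 259 and 417 CPM (0.69). Fos was also higher in endothelial (1.47) and photoreceptor-lineage cells (0.67) of the Alk1 ECKO library. Egr1 was level, at 1863 and 1865 CPM. The transcription factor genes Klf2 (787 against 510.2 CPM, -0.63) and Klf6 (526 against 339 CPM, -0.63), the GTPase gene Rhob (899 against 542 CPM, -0.73), Nr4a1 (54.7 against 19.4 CPM, -1.50) and Egr2 (-1.43) were lower. Of 12 heat shock genes none was higher and 4 lower (median -0.44), among them the chaperone gene Hsp90aa1 (708 against 255 CPM, -1.47), Hspa5, Hspd1 and Bag3. Whether dissociation had a part in these values was not tested.

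**Figure D5:**
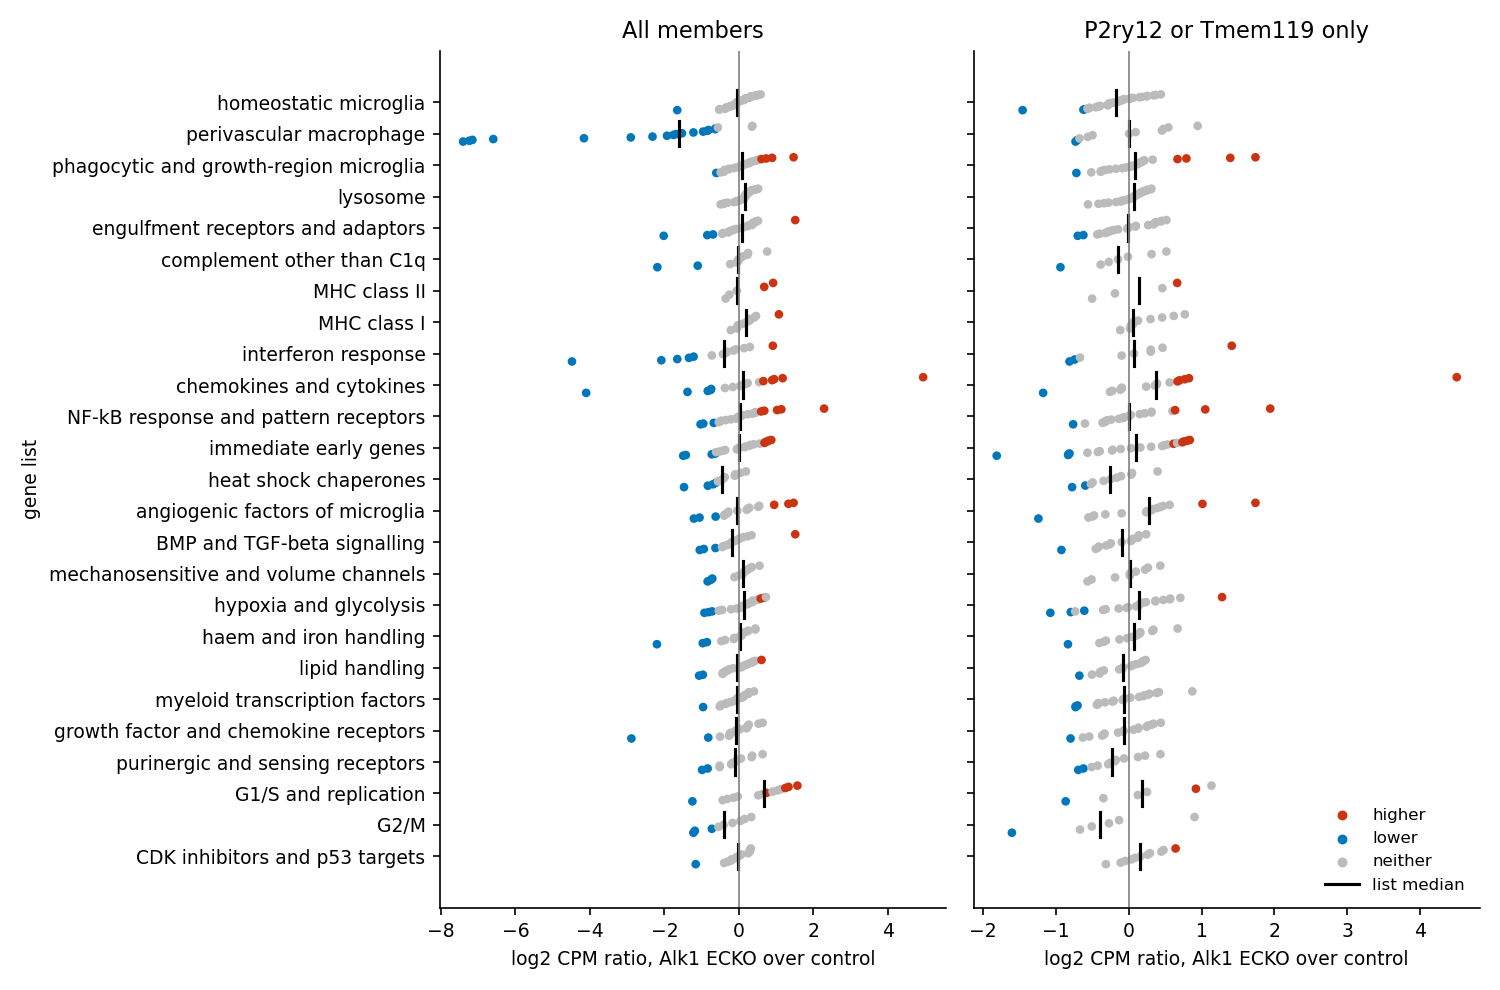
Log2 ratios of Alk1 ECKO over control for the measured genes of each list, with 1 point per gene coloured by its call and the list median as a line, in all members (left) and in cells with the P2ry12/Tmem119 mark alone (right). The medians of the perivascular list, -1.61 and 0.01, are over 20 and 11 genes.

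Of 17 genes by which microglia and macrophages are known to act on vessels, 3 were higher and 3 lower (median -0.04), where 3.37% and 13.6% of all measured genes were called. The higher ones were Spp1, Il1b and the fatty acid receptor gene Gpr84 (61.0 against 153 CPM, 1.33), whose thinned shares of cells, 8.70% and 7.63%, gave no such order. The lower ones were the semaphorin and VEGF co-receptor gene Nrp1 (-0.63), the urokinase gene Plau (-1.06) and Notch1 (-1.21). Vegfb was at 69.7 and 84.5 CPM, Igf1, an insulin-like growth factor, at 535 and 406 CPM (-0.40), and Vegfa had 1 and 2 UMIs, too few to compare. Of 17 BMP and TGF-beta genes 1 was higher, Itgav, whose product helps to activate latent TGF-beta, and 3 were lower (median -0.19). The lower ones were Acvrl1, the transducer gene Smad2 (-0.94) and Nrros (-0.63), whose product holds latent TGF-beta 1 on microglia. The ligand gene Tgfb1 (205 against 241 CPM), the receptor gene Tgfbr1 (250 against 209.7 CPM) and the co-receptor gene Eng (23.6 against 20.7 CPM) had no call. Piezo1, the mechanically gated channel named in the series title, had 12 UMIs in control and 52 in Alk1 ECKO members, 14.9 against 16.3 CPM (0.12, -0.80 to 1.17), a difference not detectable at this depth. Of 12 mechanosensitive channel genes 3 were lower, the channel kinase gene Trpm7 (-0.72), the volume-regulated channel gene Lrrc8d (-0.76) and the ATP-gated channel gene P2rx7 (-0.84). In the microglia-marked cells 9 channel genes were measured and none was called, with a lowest ratio of -0.57 and a median of 0.02.

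Metabolic genes were called lower about as often as all measured genes (13.6%). Of 23 hypoxia and glycolysis genes 2 were higher and 3 lower (median 0.15), of 16 haem and iron genes none was higher and 3 lower (0.03), and of 18 lipid genes 1 was higher and 2 lower (-0.04). Lower among them were the cystine transporter gene Slc7a11 (-2.20), the iron regulator Ireb2 (-0.97), the sterol synthesis gene Msmo1 (-0.97) and the oxygen-dependent demethylase gene Kdm3a (-0.93). In the microglia-marked cells 1 of 14 measured haem and iron genes was lower, and the lowest ratio was -0.84. The iron storage gene Ftl1 was at 0.12, the exporter gene Slc40a1 at -0.37 and Hmox1 at -0.14, and Hmox1 was at 0.01 without the top cell of each library. Of 14 measured G1/S genes 4 were higher and 1 lower (median 0.68), where 3.37% of all measured genes were higher. The replication genes Gins2 (1.57) and Lig1 (1.33, 5 against 50 UMIs) were among the higher. Summed, the 38 genes of the whole list were at 474 CPM in control members (428 to 524) and 532 CPM in Alk1 ECKO members (507 to 558). These counting intervals overlapped, so the list sum showed no clear rise. In the microglia-marked cells 6 G1/S genes were measured, of which 1 was higher and 1 lower (0.19). Over all members, of 9 G2/M genes none was higher and 3 lower (-0.41). Of 14 cell cycle inhibitor and p53 target genes 1 was lower, and Cdkn1a, which encodes the inhibitor p21, was at 335 and 338 CPM.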

How the data were processed

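CD31-enriched retinal cells of P6 mice were profiled in 1 control and 1 Alk1 ECKO library with 10x Genomics 3' v3.1 chemistry, per the labels' protocols. The authors deposited matrices of raw UMI counts per gene and barcode (32285 genes), whose software line, per the file headers, is Cell Ranger 5.0.1. The submitters' processing notes list mm10, FastQC 0.11.9 and a later Cell Ranger, 6.1.1. No label or header says whether introns were counted or how barcodes were filtered.

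The members and gene lists were chosen with earlier results of these data known. UMIs were summed over members and expressed as CPM with Python 3.11.15, numpy 2.4.6, scipy 1.17.1 and pandas 2.3.3, and plotted with matplotlib 3.10.9. Intervals (95%) are exact Poisson for sums, conditional binomial for ratios and Clopper-Pearson for shares. A gene was measured with at least 10 UMIs expected in each library, and called at 1.5-fold with an interval excluding no difference. Counts of 0 used a floor of 3. For thinned shares each cell was drawn down to 1000 UMIs, which every member held. The calculation was tested on simulated data.

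Named genes are the 12 highest and 12 lowest called ratios, without predicted, haemoglobin, mitochondrial, ribosomal and sex-linked genes, genes the selection read and genes higher in other cells of that library. In each list the 3 highest and 3 lowest, those against the list, and any for its level could be named, and for subgroups the 10 highest and 10 lowest. Photoreceptor-lineage cells held at least 4 of 8 photoreceptor genes. Scrublet (scanpy 1.11.5) called 0 of 7909 control and 2 of 4237 Alk1 ECKO cells by itself, so doublets stayed in, and removing the top-scoring 500 and 144 cells (0.8% per 1000 cells) was an alternative. Other alternatives changed the filters, the depth, the fold and the centring. Some genes are not reported here. Positions are from GENCODE vM21 (mm10) and promoters from RefSeq (GRCm38.p6).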

Additional observations from a re-analysis of the deposited data

Results flagged for a closer look

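In the Alk1 ECKO library 43 cells met every criterion except the endothelial maximum, and 0 did in control. Their median C1q level was 3103 CPM beside 4965 CPM of endothelial genes and 1448 UMIs, and their median doublet score was 0.0454 against 0.0386 in members. The lower mitochondrial limit alone left out 87 Alk1 ECKO and 9 control cells with the myeloid criteria, with medians of 1536 and 1587 UMIs. These cells enter no comparison above.

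Among the named genes and list members, 8 were called in opposite directions in members and in endothelial cells of the same libraries, each by at least 1.5-fold with an interval excluding no difference. Smaller opposite differences are not counted. The difference between the classes was not tested, since each genotype had 1 library. Higher in members and lower in endothelial cells were Gart (1.73 and -0.73) and Csf1 (0.89 and -0.97). Lower in members and higher in endothelial cells were Cxcl2 (-0.76 and 1.34), Klf2 (-0.63 and 1.07), Klf6 (-0.63 and 0.69), the urokinase gene Plau (-1.06 and 0.87), Nrros (-0.63 and 1.11) and the scavenger receptor gene Colec12 (-1.22 and 0.76). These ratios are over all members, so they also reflect which cells were captured. For Cxcl2, 237 of 304 control UMIs lay in the 10 cells with the Mrc1/Pf4 mark alone. In the microglia-marked cells Cxcl2 was at 125 CPM in control (1 of 37 cells) and 213 CPM in Alk1 ECKO, the endothelial direction.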

How the results depend on the processing

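No paired analysis was possible because each genotype had 1 library. For the same reason no library could be left out. The Alk1 ECKO share of members was 10.1% without the endothelial maximum. With 1 UMI in place of 2, the P2ry12/Tmem119 share was 76.8% in control and 88.6% in Alk1 ECKO, the Alk1 ECKO Mrc1/Pf4 share 15.3% and its Mki67/Top2a share 8.48%. With 3 UMIs the Alk1 ECKO P2ry12/Tmem119 share was 77.1%. Thinning to 1000 UMIs together with 1 UMI in place of 2 gave 42.0% and 40.3% for P2ry12/Tmem119, 13% and 2.54% for Mrc1/Pf4, and 0 in control for Mki67/Top2a. Genes higher in Alk1 ECKO numbered 586 (and 1255 lower) with the mean of per-cell CPM, 48 (47 lower) after thinning, 377 (612 lower) after centring on the median and 71 (291 lower) at a fold of 2. Genes lower numbered 576 with at least 20 expected UMIs, 426 in microglia-marked cells and 574 in members under 2 Mrc1/Pf4 UMIs, a setting chosen after seeing the data. The median log2 ratio was 0.12 after thinning, 0 when centred, -0.15 with 5 expected UMIs, -0.062 with 20, -0.047 in microglia-marked cells and -0.075 under 2 Mrc1/Pf4 UMIs. In those last 2 settings Ccl7 turned to 0.41 and 0.83 and Ccr1 to 0.60 and 0.77. These values are bounds against the floor of 3 counts, and both genes had 0 control UMIs in the microglia-marked cells. With 20 expected UMIs 3 of the 12 named higher genes were still called, the other 9 having fewer expected UMIs than that in control. After thinning 2 of those 12 genes had a value, and Socs3 (1.62) was no longer called. The cause of the other changes was not tested. Depth limits the control side most, with 69 cells.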

Other observations

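Both libraries held members with Xist UMIs only and members with Y-linked UMIs only (15 and 31 in control, 33 and 149 in Alk1 ECKO), 5 and 4 members with both and 18 and 50 with neither. Cells of both sexes thus entered each library. C1qa UMIs were found in 0.938% of control and 7.51% of Alk1 ECKO endothelial cells, and after thinning in none and 2.03%. Cd79b, listed here as a lymphocyte gene, was found in 13 of 69 control and 89 of 236 Alk1 ECKO members, while the T cell gene Cd3e was at 0. After thinning Cd79b was found in none and 5.93%, with overlapping counting intervals.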
